A study of Arabidopsis thaliana with 2 samples.

Results

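The hotspots described here are the intervals of the deposited single-stranded RNA list that lie on the chloroplast genome (chrC) or the mitochondrial genome (chrM). They were chosen by chromosome name alone. They number 402 of the 33187 hotspots in the list (1.21%), with 143 on the chloroplast genome and 259 on the mitochondrial genome. The other 32785 lie on the nuclear chromosomes. The RNA came from immature flower bud clusters of Arabidopsis thaliana Col-0, and both organelle groups and the nuclear group come from the same library. That library is labelled as treated with a nuclease specific for double-stranded RNA, but the enzyme named is RNase ONE, an enzyme that cuts single strands. It is called the single-stranded RNA library here, by its name. The ribosome-bound RNA library of the same tissue holds RNA of pooled monosome and polysome fractions, and it was used for the level of each organelle gene. The floral organ identity genes PI, SEP3, AP3, AP1 and AG were all detected in it, at 7.71, 3.09, 1.99, 1.33 and 0.852 RPKM for their first listed transcripts, where RPKM is clones per kb and per library size. There was 1 library per assay and no replicate, so values are given with exact 95% intervals that cover counting error only, and no test between conditions was made.

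Chloroplasts and mitochondria keep small genomes of their own, and in plants their genes are largely transcribed as long precursors that are cut, spliced and edited with the help of nuclear-encoded RNA-binding proteins. The chloroplast genome encodes core subunits of both photosystems, the cytochrome b6f complex, the ATP synthase and the NDH complex, the large subunit of Rubisco, and part of its own RNA polymerase and ribosome. It holds a large inverted repeat whose copies carry the same genes, the ribosomal RNA genes among them. The mitochondrial genome encodes subunits of the respiratory chain and of its own ribosome, and many of its genes are split by group II introns, RNAs that fold to be spliced. Fragments of organelle DNA are also found in plant nuclear chromosomes, and a large stretch of mitochondrial DNA lies near the centromere of chromosome 2 in Col-0.

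The sequences below show the intervals that the results turn on, read 5′ to 3′ on the listed strand from the RefSeq TAIR10.1 assembly. The first is the hotspot of strongest score on the chloroplast genome, in which capitals mark the bases inside the rrn4.5S gene of the small 4.5S ribosomal RNA.
chrC:107688-107742, plus strand, rrn4.5S end: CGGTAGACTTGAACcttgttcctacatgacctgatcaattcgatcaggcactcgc
The next pair lies in the trnA intron of the 2 inverted repeat copies, where the listed ends differ although the DNA is the same. Capitals mark the bases inside both intervals.
chrC:104061-104111, plus strand, trnA intron, copy A: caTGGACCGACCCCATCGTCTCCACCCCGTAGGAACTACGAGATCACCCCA
chrC:134529-134586, minus strand, trnA intron, copy B: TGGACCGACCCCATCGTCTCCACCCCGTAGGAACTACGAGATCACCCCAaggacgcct
A hotspot in the 23S ribosomal RNA gene is shown because its sequence is also present, without a difference, in the TAIR10.1 mitochondrial genome. All of its bases are in that match and so are in capitals.
chrC:105442-105498, plus strand, rrn23S: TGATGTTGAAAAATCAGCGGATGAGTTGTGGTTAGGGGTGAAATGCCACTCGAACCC
The longest chloroplast hotspot and examples from photosynthesis genes follow, with coding bases in capitals.
chrC:85567-85776, minus strand, rpl2: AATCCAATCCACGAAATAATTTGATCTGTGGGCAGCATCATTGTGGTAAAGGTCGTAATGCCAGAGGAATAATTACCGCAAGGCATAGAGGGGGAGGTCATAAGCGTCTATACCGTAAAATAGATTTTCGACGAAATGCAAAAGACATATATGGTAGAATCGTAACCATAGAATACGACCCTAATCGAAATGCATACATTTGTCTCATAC
chrC:33964-34050, plus strand, psbC: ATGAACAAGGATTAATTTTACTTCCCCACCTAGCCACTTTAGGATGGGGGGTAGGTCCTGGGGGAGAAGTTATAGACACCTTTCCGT
chrC:55053-55151, plus strand, rbcL: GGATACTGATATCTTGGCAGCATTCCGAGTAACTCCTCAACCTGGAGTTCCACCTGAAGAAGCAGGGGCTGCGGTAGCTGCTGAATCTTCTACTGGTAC
chrC:75794-75859, plus strand, petB: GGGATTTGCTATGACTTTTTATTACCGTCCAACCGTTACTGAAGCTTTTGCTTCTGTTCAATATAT
chrC:75941-75991, plus strand, petB: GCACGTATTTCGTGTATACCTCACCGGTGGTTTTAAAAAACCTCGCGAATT
chrC:76013-76077, plus strand, petB: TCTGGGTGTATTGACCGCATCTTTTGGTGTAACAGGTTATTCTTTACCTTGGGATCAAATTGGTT
chrC:117327-117428, minus strand, psaC: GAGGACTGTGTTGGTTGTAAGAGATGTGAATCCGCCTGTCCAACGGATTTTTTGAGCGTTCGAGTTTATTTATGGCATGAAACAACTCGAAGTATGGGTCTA
The last 3 are mitochondrial examples, read from chromosome 2, where a hotspot of the same length and score is listed, and capitals mark bases that are coding in the mitochondrial annotation.
chr2:3451208-3451268, plus strand, cob: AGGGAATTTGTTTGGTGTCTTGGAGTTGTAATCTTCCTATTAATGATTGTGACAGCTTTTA
chr2:3420329-3420407, plus strand, nad4: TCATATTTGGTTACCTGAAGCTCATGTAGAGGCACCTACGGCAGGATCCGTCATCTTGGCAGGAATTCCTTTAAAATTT
chr2:3403094-3403164, minus strand, nad1 intron: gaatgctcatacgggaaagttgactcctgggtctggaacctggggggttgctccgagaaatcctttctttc

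Hotspots lay closer together on both organelle genomes than on the nuclear chromosomes. The chloroplast genome had 46.3 hotspots per 100 kb of strand (95% exact Poisson interval 39.0 to 54.5), and the mitochondrial genome had 35.2 (31.1 to 39.8) when scaled to the 367808 nt of the TAIR10.1 mitochondrial sequence. The nuclear chromosomes together had 13.8 (13.6 to 13.9), with 12.2 on chromosome 2 as the lowest and 14.4 on chromosome 1 as the highest. Hotspot bases covered 3.45% of both chloroplast strands and 2.51% of both mitochondrial strands, against 0.964% of the nuclear strands. The median gap to the next hotspot on the same strand was 1001 nt in the chloroplast and 1274 nt in the mitochondrion, against 1797 nt on the nuclear chromosomes. The list carries only part of a running number, and the listed share of the numbers was lower on the organelles. It was 7.47% (binomial interval 6.33 to 8.74) for the chloroplast and 9.37% (8.31 to 10.5) for the mitochondrion, against 12.1% (12.0 to 12.2) for the nuclear chromosomes. Transcript abundance and copy number of the genomes also differ between organelles and nucleus, and their part in the densities was not tested. In such whole-tissue RNA, fewer cells of a type and less RNA per cell cannot be told apart.

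**Figure D1:**
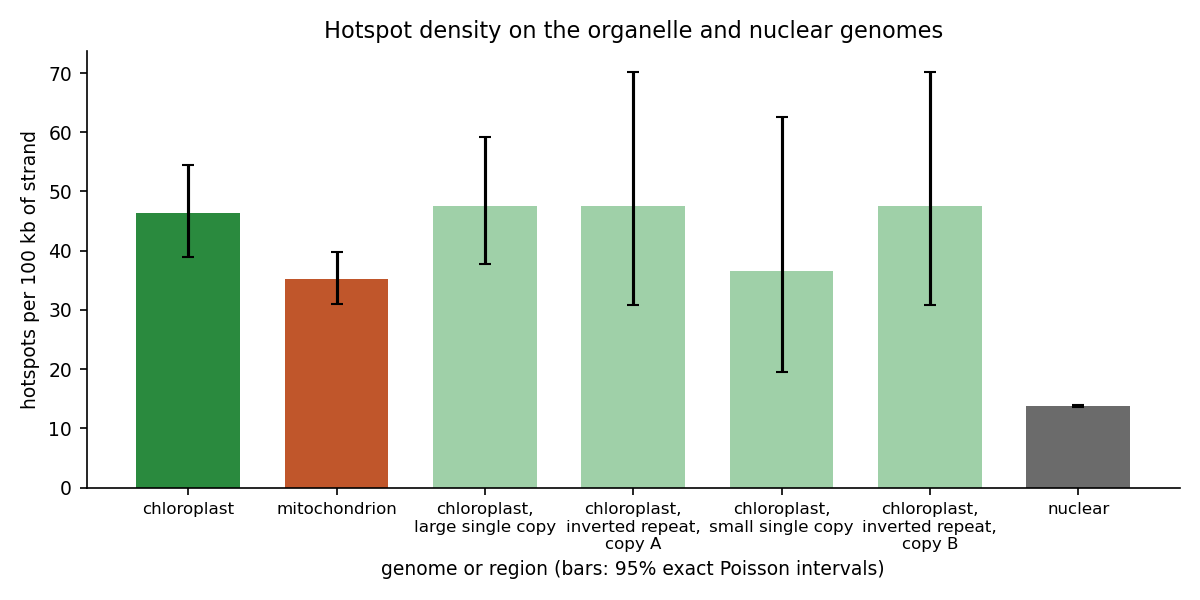
Hotspots per 100 kb of strand (y axis) on the 2 organelle genomes, on the 4 regions of the chloroplast genome and on the nuclear chromosomes (x axis), with 95% exact Poisson intervals from 1 library. Chloroplast and mitochondrial values of 46.3 and 35.2 stand above the nuclear 13.8, and the 4 chloroplast regions have overlapping intervals.

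Within the chloroplast genome the density differed little between regions. The large single-copy region held 80 hotspots, at 47.5 per 100 kb of strand (37.7 to 59.1). Each inverted repeat copy held 25, at 47.6 (30.8 to 70.3). The small single-copy region held 13, at 36.6 (19.5 to 62.5), and its interval overlaps those of the other regions. The longest stretch free of hotspots on either strand ran over 7243 nt, from 42796 to 50038 in the large single-copy region. The densest stretches of at most 2000 nt on 1 strand had 5 hotspots each. These lay over psaA on the minus strand (40116 to 41924), over psbC and the spacer before psbZ on the plus strand (33964 to 35544), and from ycf4 past cemA on the plus strand (59797 to 61552).

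Fewer mitochondrial hotspots lay on the plus strand than on the minus strand, and in the chloroplast the interval of the share included an even split. The plus strand carried 110 of 259 mitochondrial hotspots (42.5%, exact binomial interval 36.4 to 48.7) and 67 of 143 chloroplast hotspots (46.9%, 38.5 to 55.4), against 49.9% (49.3 to 50.4) of nuclear hotspots. Hotspots of opposite strands rarely met. In the chloroplast 1 pair overlapped, inside ycf1, a large essential reading frame, where a minus-strand hotspot at 125169 to 125226 and a plus-strand hotspot at 125174 to 125272 shared 53 nt. In the mitochondrion 2 pairs overlapped, by 17 and 8 nt. Members of such pairs made up 1.40% of chloroplast hotspots (0.170 to 4.96) and 1.54% of mitochondrial hotspots (0.422 to 3.91), against 0.412% of nuclear hotspots (0.345 to 0.487).

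Lengths, taken as end minus start, were close between the genomes. Counts of hotspot bases include both ends and so come to 1 nt more per hotspot. The median was 66 nt in the chloroplast (quartiles 56 and 81.5) and 65 nt in the mitochondrion (56 and 76), against 64 nt on the nuclear chromosomes (55 and 74). The shortest listed length, 50 nt, was that of 6 chloroplast hotspots (4.20%, 1.56 to 8.91) and 16 mitochondrial hotspots (6.18%, 3.57 to 9.84), against 4.86% of nuclear hotspots (4.63 to 5.09). Lengths of 100 nt or more were found for 18 chloroplast hotspots (12.6%, 7.63 to 19.2) and 23 mitochondrial hotspots (8.88%, 5.71 to 13.0), against 7.46% of nuclear hotspots (7.18 to 7.75). The longest chloroplast hotspots had 209 nt in both copies of rpl2, which encodes a protein of the large ribosomal subunit, and 202 nt in atpB, the beta subunit of the ATP synthase. The longest in the mitochondrion had 155 nt (302067 to 302222, minus strand), 153 nt (85672 to 85825, minus strand) and 142 nt (333865 to 334007, minus strand). The longest nuclear hotspot, at 1533 nt, was longer than any organelle hotspot.

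Every score in the list is below 0. The highest is -1.20, and more negative is called stronger here, although the file does not state a direction. The median score was -2.96 in the chloroplast (quartiles -3.32 and -2.51) and -2.62 in the mitochondrion (-3.19 and -2.08), against -2.62 on the nuclear chromosomes (-3.34 and -2.08). Over the whole list 48.9% of hotspots were stronger than the median score. The count in the chloroplast was 94 of 143 (65.7%, 57.3 to 73.5), above that share, and in the mitochondrion 129 of 259 (49.8%, 43.6 to 56.1), near it.

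Scores of -10 or stronger formed a small separate set of 25 hotspots, 0.0753% of the whole list, with no hotspot between them and -3.59. The organelles held 2 of them and the nuclear chromosomes 23, down to -16.4. The chloroplast hotspot, at -13.3, is the rrn4.5S interval printed above (107688 to 107742, plus strand). It covers the last 14 nt of rrn4.5S and runs past its end. The other inverted repeat copy holds the same bases, and no hotspot is listed there. The mitochondrial hotspot, at -10.6, lay at 365073 to 365192 on the plus strand and ends at the highest coordinate listed for that genome. Below these, 6 chloroplast and 14 mitochondrial hotspots shared the score -3.59. In the chloroplast they included an interval over the stop codon of rpoC1, a subunit of the plastid RNA polymerase (20197 to 20253), one 371 nt before psbM (29182 to 29300), one 94 nt before petL (65558 to 65618) and one in ycf2 (88252 to 88318). The first mitochondrial ones by position were at 23401 to 23503, 27114 to 27168, 87949 to 88019 and 146660 to 146730, the last in a nad1 intron.

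Scores of organelle hotspots lay less often at the commonest values of the list. Most scores of the whole list lie within 0.01 of its 6 most frequent values, which run from -1.27 to -3.59 and are called the frequent values here. The least common of the 6 was held by 4171 hotspots and the next value, -2.84, by 200. Of the chloroplast hotspots 46 (32.2%, 24.6 to 40.5) had a frequent value, and of the mitochondrial hotspots 127 (49.0%, 42.8 to 55.3), against 93.4% of nuclear hotspots (93.2 to 93.7). The weakest frequent value, -1.27, was held by 3 chloroplast hotspots (2.10%) and 28 mitochondrial hotspots (10.8%), against 12.7% of nuclear hotspots. Mitochondrial hotspots also shared other values among themselves, such as -2.84, held by 17, and -2.38 and -1.72, held by 16 each. The same 3 values were held by 0, 2 and 1 chloroplast hotspots. The 259 mitochondrial hotspots had 67 different scores, and 208 of them held a score that recurred in that genome. The 143 chloroplast hotspots had 99 different scores, and 62 of them held one that recurred. The sources used here give no formula for the score. The 6 frequent values equal the negative inverse hyperbolic sine of the whole numbers 1 to 6, divided by the natural logarithm of 2. What those whole numbers stand for is not stated and was not tested.

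**Figure D2:**
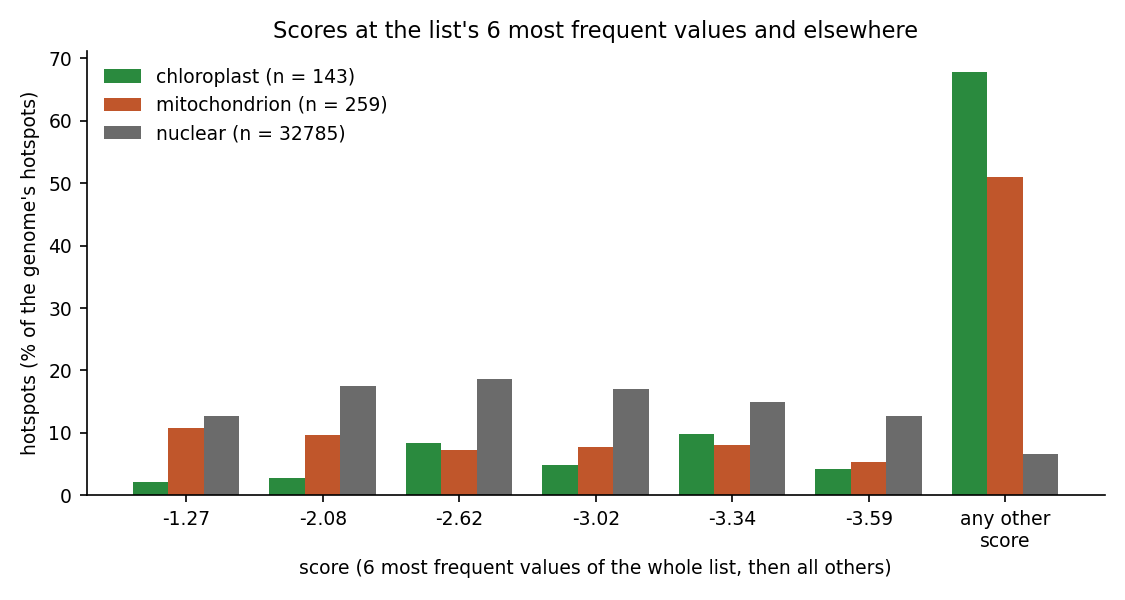
Share of the hotspots of each genome (y axis, percent) at the 6 most frequent scores of the whole list (within 0.01) and at any other score (x axis), for 143 chloroplast, 259 mitochondrial and 32785 nuclear hotspots. Other scores make up 67.8% of the chloroplast and 51.0% of the mitochondrial hotspots, against 6.56% of the nuclear hotspots.

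The inverted repeat gave a comparison of hotspots on identical DNA. Copy A spans 84171 to 110434 and copy B spans 128215 to 154478. Of the 25 hotspots in each copy, 17 pairs had exactly mirrored ends on opposite strands, and 7 further pairs overlapped with ends that differed. Among the 17 pairs the score was identical in 11 and differed by at most 0.127 in the other 6. The hotspots in rrn16S and rrn23S, the genes of the small- and large-subunit ribosomal RNAs, were among those with slightly different scores. In rrn16S the interval 101230 to 101338 scored -3.43 in copy A and -3.30 in copy B. Each copy had 1 hotspot without a partner. In copy A it was the strongest chloroplast hotspot, at rrn4.5S, and in copy B a 110-nt hotspot in ycf2 (151845 to 151955) with a score of -3.59. RNA from one copy cannot be told apart from RNA of the other by sequence, and the sources used here do not say how reads with both origins were placed. Counted once per repeat pair, the 143 chloroplast hotspots come to 119.

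**Figure D3:**
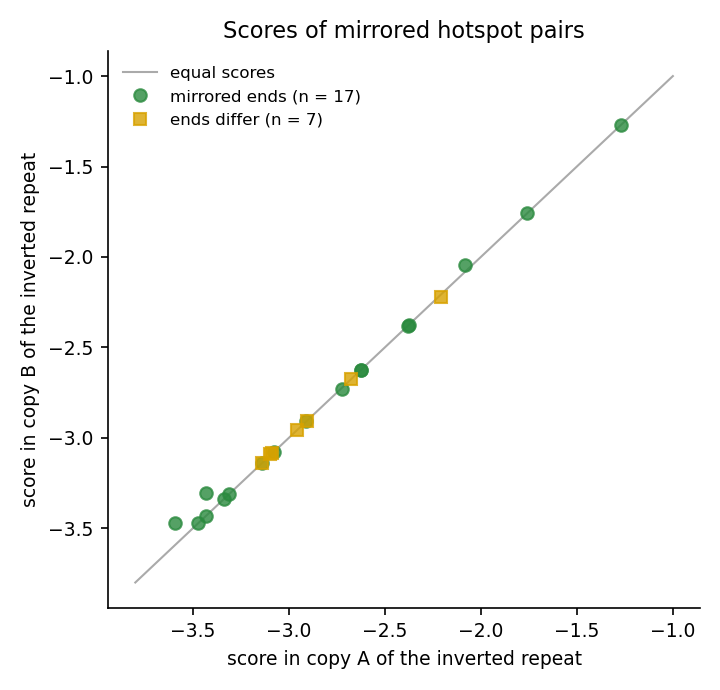
Score in copy A (x axis) against score in copy B (y axis) of the chloroplast inverted repeat, for 17 pairs with mirrored ends and 7 pairs that overlap with different ends; the line marks equal scores. Points lie on or close to the line, the farthest of the pairs with mirrored ends 0.127 away, and the 2 hotspots without a partner are not drawn.

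Chloroplast hotspots lay mostly on the sense strand of genes. At least 1 base of a gene on the same strand was covered by 99 of 143 (69.2%, 61.0 to 76.7), and 87 (60.8%) lay wholly inside such a gene. Of all hotspot bases 48.2% were coding sequence, which makes up 25.7% of the bases of both strands, a ratio of 1.88. Introns held 12.6% of hotspot bases and 6.03% of both strands (ratio 2.09), and ribosomal RNA genes 6.34% and 2.89% (ratio 2.19). Bases opposite a gene held 11.3% of hotspot bases and 35.5% of both strands (ratio 0.320), and bases with no gene on either strand 21.5% and 29.0% (ratio 0.739). When all hotspots were moved along the genome, the share of their bases in same-strand genes was 66.4% at 100 nt to either side, 58.5% and 56.4% at 1000 nt, and 37.3% and 41.1% at 10000 nt, against 67.2% as listed. The share thus hardly moved with a shift of 100 nt.

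No hotspot base fell in a transfer RNA. None of the 37 tRNA genes was touched in its mature sequence, and 0 of 143 hotspots lay mainly in one, which allows a share of up to 2.10%. Since tRNA exons are 0.903% of the bases of both strands, this lack is not resolved at this number of hotspots. The introns of tRNA genes were not empty. Of the 18 hotspots that lay mainly in introns, 10 were in tRNA introns, with 4 in trnA, 2 each in trnI and trnG, and 1 each in trnK and trnV; those of trnA and trnI come from both repeat copies. The other 8 were in rpl16 and rpl2, with 2 each, and in atpF, clpP, rps16 and ycf3, with 1 each. The longest of them had 160 nt and lay in the rpl16 intron (82338 to 82498, score -3.03).

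The 10 hotspots in ribosomal RNA were 2 in each copy of rrn16S and 3 in each copy of rrn23S. In rrn16S they lay at 101036 to 101094 and 101230 to 101338 in copy A, with scores of -3.14 and -3.43. In rrn23S they lay close together, at 105258 to 105309, 105366 to 105420 and 105442 to 105498, with scores of -2.72, -2.91 and -2.08.

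A frequent score value was less common in chloroplast hotspots on genes than in the others. It was found in 10 of 64 hotspots mainly in coding sequence (15.6%, 7.76 to 26.9), 2 of 18 in introns (11.1%, 1.38 to 34.7) and 1 of 10 in ribosomal RNA (interval 0.253 to 44.5%). Opposite a gene it was found in 15 of 19 (78.9%, 54.4 to 93.9) and outside genes in 18 of 32 (56.3%, 37.7 to 73.6), against the 93.4% of nuclear hotspots. With 1 repeat copy left out the shares were 8 of 54 in coding sequence and 14 of 16 opposite a gene. Median scores of the classes were close, at -2.97 in coding sequence, -2.68 in introns, -3.02 opposite a gene and -3.02 outside genes. The hotspots opposite a gene included 5 opposite ycf1, 4 opposite ycf2, 3 opposite rpoC2, 2 opposite rpoC1, and 1 each opposite psaA, ndhA, ndhC, ndhF and rps19.

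**Figure D4:**
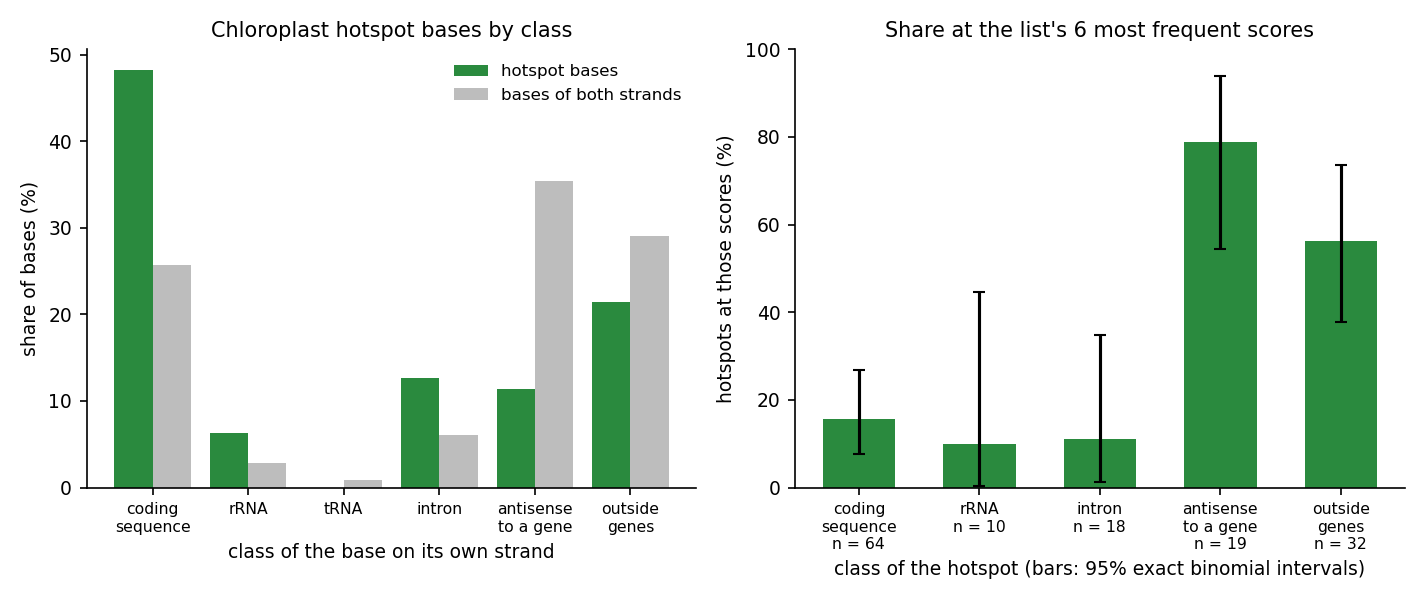
Left, share of chloroplast hotspot bases and of all bases of both strands (y axis, percent) by annotated class of the base on its own strand (x axis). Right, share of hotspots whose score is 1 of the 6 frequent values of the list (y axis, percent) by the class that holds most of the hotspot, with 95% exact binomial intervals; coding sequence is at 15.6% and hotspots opposite a gene at 78.9%.

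Of the 32 hotspots that lay mainly outside genes, 7 reached into a gene of the same strand, 9 ended within 200 nt before the start of one and 3 began within 200 nt beyond its end. One lay 70 nt before rbcL, the gene of the Rubisco large subunit (54828 to 54888, score -3.08), and another 239 nt before psbD (32391 to 32472, score -3.37). Start codons were covered in 4 genes, rpoB, rps14, psaA and rpl36, and stop codons in 6 genes, atpI, rpoC1, ycf4, psbL, petL and ycf2.

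Among the 78 protein-coding genes of the chloroplast, 30 (38.5%, 27.7 to 50.2) had a hotspot in their coding sequence on the same strand, taking for repeated genes the copy with more. Photosystem I, the complex that reduces ferredoxin, had hotspots in 4 of 7 genes, counting its assembly factor genes ycf3 and ycf4, and 135 hotspot bases per kb of coding sequence over the group. psaA, which encodes a reaction centre protein, had 5 hotspots and 335 hotspot nt, and its partner psaB had 3 hotspots and 264 nt. psaC, which binds iron-sulfur clusters, had 415 hotspot nt per kb from 102 covered bases of 1 hotspot, the highest of the group. In photosystem II, the water-splitting complex, 4 of 15 genes had hotspots, at 112 nt per kb over the group. They were psbC and psbB, which encode the inner antenna proteins, psbA, which encodes the D1 protein, and the small gene psbL. psbC had 4 hotspots with scores from -1.84 to -3.53 and 298 nt, psbA had 2 with 210 nt, psbB had 2 with 186 nt, and psbL had 1 with 59 coding nt, or 504 nt per kb.

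The cytochrome b6f complex, which passes electrons between the photosystems, had hotspots in 2 of 6 genes, and petB, the cytochrome b6 gene, had 3 close together, the intervals printed above, or 281 nt per kb. petL had 22 coding nt in 1 hotspot. Of the 6 ATP synthase genes, 4 had hotspots, with 203 nt in atpB, 124 nt in atpA, 67 nt in atpF and 34 nt in atpI, and none in atpE and atpH. The NDH complex, which returns electrons to the photosynthetic chain, had the lowest value of the groups, 16.3 nt per kb, with hotspots in 3 of 11 genes (ndhG 65 nt, ndhH 53 nt, ndhB 52 nt). rbcL had 2 hotspots and 169 nt, or 117 nt per kb. Of the 4 RNA polymerase genes 3 had hotspots, with 257 nt in rpoC1, 248 nt in rpoC2 and 126 nt in rpoB, and none in rpoA. Ribosomal protein genes had hotspots in 6 of 21, led by rpl36 at 263 nt per kb and rpl2 at 255 nt per kb. Of the 7 other protein genes, ycf2 had 7 hotspots and 487 nt in copy B but 6 and 374 nt in copy A, ycf1 had 208 nt and matK, an intron maturase, had 60 nt.

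Levels in the ribosome-bound library were set beside these counts. The 88 listed chloroplast transcripts took 11.3% and the 122 mitochondrial transcripts 1.49% of the RPM of all listed transcripts, against 87.2% for the nuclear ones. The files list identifiers without gene names, so a transcript was paired with a gene only where its listed length equals the coding length of 1 gene name and no other. This paired 60 genes, and 54 of 54 neighbouring pairs of single-copy genes kept the order of the identifiers. Genes with a hotspot had a median of 13.9 RPKM (quartiles 5.18 and 99.3, n = 23), and genes without one 8.18 RPKM (4.02 and 21.7, n = 37), a ratio of medians of 1.70. The ranges overlapped widely, at 0.388 to 1678 RPKM with a hotspot and 0 to 177 RPKM without. The median with a hotspot was the value of rpl2, a gene of the inverted repeat, which had 32.0 RPKM from unweighted clones. From unweighted clones of all genes the ratio of medians was 2.15. Genes with a hotspot were also longer, with a median coding length of 1422 nt against 354 nt without. Among genes of at least 500 nt the medians were 15.0 RPKM with a hotspot (n = 17) and 6.09 RPKM without (n = 13). Among shorter genes they were 7.94 RPKM with a hotspot (n = 6) and 8.26 RPKM without (n = 24), the opposite order. Genes of 1 library are not replicates, and no test was made.

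rbcL had the highest value of the listed chloroplast transcripts, 1678 RPKM (exact Poisson interval 1656 to 1699). Among paired genes with a hotspot it was followed by psbC at 393 (383 to 404), psbB at 195 (188 to 203), rps14 at 145 (131 to 159) and psbL at 109 (90.5 to 130). psbA, psaC, atpF, ycf4, matK, ndhB and rpl36 had a hotspot but no paired transcript, so they could not be ranked. Nor could psbD, which had no hotspot and has the same coding length as psbA, 1062 nt. The lowest values of paired genes with a hotspot were those of ycf2 at 0.388 (0.252 to 0.570) and ycf1 at 0.764 (0.543 to 1.04). From unweighted clones these were 0.941 and 1.73 RPKM. The highest of the paired genes without a hotspot were short genes, psbF at 177 (154 to 203), psbJ at 166 (144 to 191) and psbE at 141 (127 to 157), small photosystem II subunits, then psbH at 78.3 (66.8 to 91.1) and atpE at 48.1 (41.4 to 55.6). Hotspot bases per kb and RPKM had a Spearman rho of 0.451 over the 23 genes with a hotspot and 0.265 over all 60 paired genes. As a description, coding length and hotspot bases had a rho of 0.590 over all 60 paired genes, which share the same libraries.

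**Figure D5:**
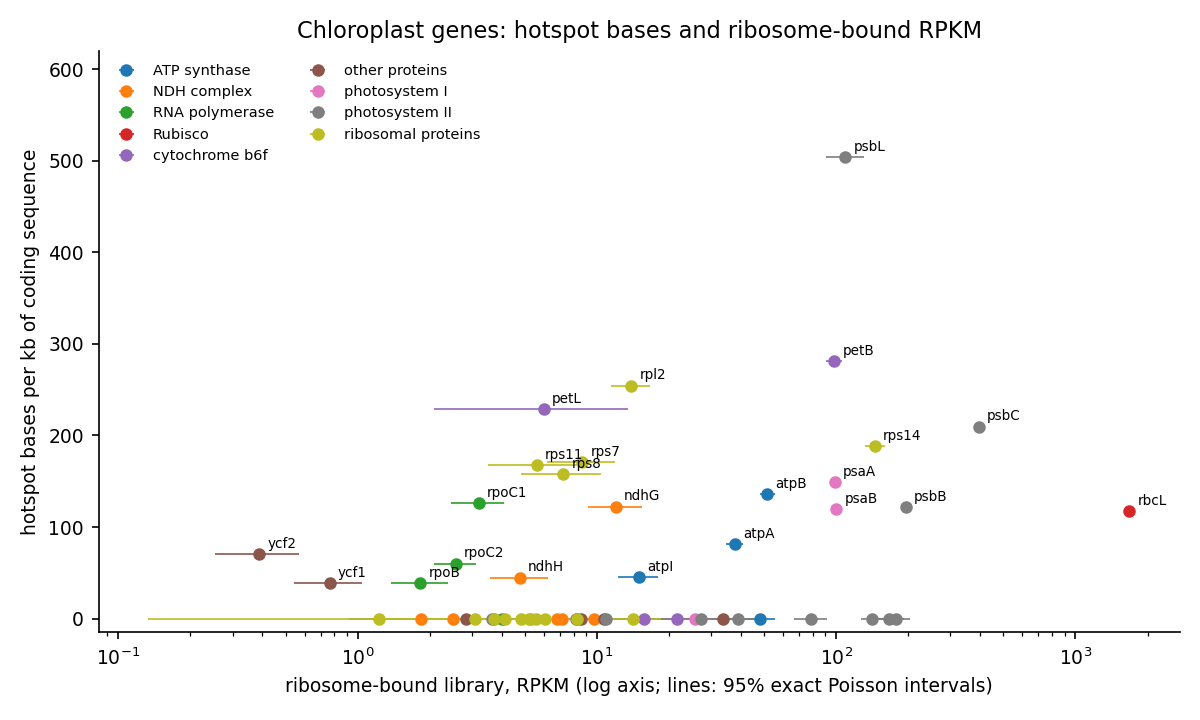
Ribosome-bound RPKM (x axis, log scale, lines are 95% exact Poisson intervals) against hotspot bases per kb of coding sequence (y axis) for the chloroplast genes paired by length with an RPKM above 0, coloured by functional group. Genes with a hotspot are named and spread from ycf2 at 0.388 to rbcL at 1678 RPKM; genes without one lie on the zero line up to psbF at 177.

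Base composition differed little from that of the genes around the hotspots. The 64 hotspots mainly in coding sequence had a median GC content of 39.3% (quartiles 32.8 and 43.1), and all 67-nt windows of chloroplast coding sequence had 37.3% (32.8 and 41.8). Over all 143 hotspots the median was 37.1%, against 35.8% for all windows of the genome. The predicted folding energy of the central 50 nt was a median of -7.25 kcal/mol (quartiles -10.1 and -4.95) for the coding hotspots, and -6.10 kcal/mol (-8.50 and -4.00) for coding windows taken every 10 nt. In ribosomal RNA it was -12.6 kcal/mol for 10 hotspots and -12.2 kcal/mol for windows. The quartile ranges overlap in both comparisons.

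Many mitochondrial hotspots had a counterpart on chromosome 2. For 147 of 259 (56.8%, 50.5 to 62.9) a chromosome 2 hotspot of equal length and equal score was listed at a position that kept the same spacing as neighbouring pairs. These counterparts lay between 3248319 and 3501073 of chromosome 2, with 68 mitochondrial hotspots on the opposite strand and 79 on the same strand. That stretch held 190 chromosome 2 hotspots, of which 141 (74.2%) were so paired. Its density was 37.6 hotspots per 100 kb of strand, against 11.9 on the rest of chromosome 2, and 42.6% of its scores took a frequent value, against 94.0% on the rest. The mitochondrial values were 35.2 and 49.0%. The stretch was bounded by the paired hotspots, which were chosen for equal length and score. Its likeness to the mitochondrial values is therefore largely built in and is not a separate result. For the paired hotspots RNA of the mitochondrial and nuclear copies cannot be told apart. Mitochondrial hotspots without a counterpart had a median length of 65 nt and a median score of -2.84 (n = 112), and those with one 66 nt and -2.62. Of the 147, 12 also formed 6 pairs within the mitochondrial genome, 134165 nt apart with equal length and score.

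The deposited mitochondrial coordinates do not follow the TAIR10.1 mitochondrial sequence, so genes were named only through chromosome 2. The sequences of 145 of the 147 paired hotspots, read from chromosome 2, were found without a mismatch in the TAIR10.1 mitochondrial genome, 135 of them once. Of these 145, 26 (17.9%, 12.1 to 25.2) lay on a named gene in the sense direction, 15 of them mainly in introns, 10 mainly in coding sequence and 1 in the sdh4 pseudogene. One lay opposite a gene, nad1. Bases opposite a gene held 0.644% of the located hotspot bases and 8.94% of the bases of both strands. Another 118 lay outside the spans of named genes, where 81.6% of the located hotspot bases and 82.1% of the bases of both strands are. Untranslated regions are annotated apart from these spans. The 5′ ones of nad6 and nad3 covered 117 and 75 nt of a hotspot each, that of ccmFN2 45 nt, and the 3′ one of cox3 the 66 nt of the hotspot in the sdh4 pseudogene. Introns held 11.0% of the located hotspot bases and 3.67% of both strands, and coding sequence 6.12% and 4.17%. All shares of both strands here are of the whole TAIR10.1 mitochondrial genome. Hotspots could be located only through a chromosome 2 counterpart, so the compared shares cover unlike sets of sequence. No located hotspot lay mainly in ribosomal or transfer RNA, and 0 of 145 allows up to 2.07% of the located hotspots. For ribosomal RNA this 0 cannot be read as a lack. The genes rrn5, rrn18 and rrn26 lie between 126001 and 143965 of the TAIR10.1 mitochondrial genome. No hotspot of any class was located there between 108486 and 146804, and hotspots without a counterpart were not located.

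By count, the located mitochondrial hotspots on genes lay mostly in genes of complex I, the NADH dehydrogenase of the respiratory chain. nad2 held 6 of them (409 nt, 51 of them coding), nad4 5 (311 nt, 79 coding), nad7 3 (225 nt, none coding), nad1 2, both in an intron, and nad5 1. The share of all gene and intron bases that complex I genes hold was not computed. The count therefore does not show an excess in these genes. The nad4 hotspots had scores from -1.31, in the coding interval printed above, to -3.59 in an intron. Of the genes for cytochrome c maturation, ccmFC and ccmFN2 held 2 each. cob, which encodes cytochrome b of complex III, atp8, an ATP synthase subunit, rpl5 and rps12, which encode ribosomal proteins, and the sdh4 pseudogene held 1 each. The cob hotspot is at 182453 to 182513 of the TAIR10.1 mitochondrial genome, minus strand, with a score of -2.96. In the ribosome-bound library nad7 had 8.62 RPKM, nad4 6.64, cob 6.18, rps12 4.42, rpl5 3.65 and ccmFN2 1.82. atp1 at 59.3, cox1 at 41.8 and cox2 at 36.7 had no located hotspot, but the 112 hotspots without a counterpart were not assigned to genes. Of the 254 short noncoding RNAs annotated on this genome, a same-strand overlap was found for 3 of the 145 hotspots and an overlap on the other strand for 2. Such same-strand bases were 0.615% of the located hotspot bases and 0.873% of the bases of both strands of the whole genome.

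The densest mitochondrial stretch had 7 minus-strand hotspots within 1807 nt (257017 to 258823), with scores from -1.27 to -3.59. Of these, 2 were located in ccmFN2, a subunit of the machinery for cytochrome c maturation. The next had 5 hotspots each, at 278861 to 279996 and 94758 to 96312, both on the plus strand. The last 5 could be located, all outside named genes. The longest stretch free of hotspots on both strands was 9042 nt, from 289248 to 298289.

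Sequence shared between the organelles touched a few members. Of the chloroplast hotspots 50 (35.0%, 27.2 to 43.4) had an exact copy of their whole sequence elsewhere in the TAIR10.1 assembly, each in the other inverted repeat copy. The 6 in rrn23S also had one in the mitochondrial genome, and none had one on the nuclear chromosomes. With a match of any 25 nt the count was 63 (44.1%). The 3 rrn23S hotspots of copy A lay in chloroplast stretches of 150 and 306 nt that match the mitochondrial genome exactly. At the end of the deposited mitochondrial coordinates, 3 plus-strand hotspots followed the same spacing, 259493 nt further on. The one at 364935 to 364991 had the ends and the score, -2.08, of the rrn23S hotspot printed above. Those at 364862 to 364913 and 364750 to 364807 matched the rrn23S hotspots at 105366 to 105420 and 105258 to 105309. With that spacing taken off, they differed from these by at most 5 nt at either end. They scored -2.91 and -2.67, against -2.91 and -2.72 in the chloroplast. The strongest mitochondrial hotspot was the next on that strand, and no chloroplast hotspot is listed at the matching place. That place runs from 105580 to 105699, and the exact match ends at 105641, so its last bases lie beyond the exact match. Whether similar sequence goes on past the first differing base was not examined. In the 3 rrn23S intervals RNA of both origins cannot be told apart.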

How the data were processed

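The 2 deposited files hold 1 library each. Reads were trimmed with cutadapt 0.9.5 and mapped with Bowtie 0.12.7 against TAIR9, per the submitters' processing notes. No hotspot caller or setting is named in the sources used here, and the name of the list carries a false discovery rate of 5%. The hotspot score is the authors' deposited value, below 0 throughout, and served only to describe and rank hotspots within the list. In the ribosome-bound table, clone counts per transcript, the weighted clones (used as an estimated count), RPM (weighted clones scaled to the mapped clones of the library) and RPKM (also per kb of listed length) were made by the authors, per the file headers. The library had 9574408 mapped clones. The hotspot list gives no read depth, so the depth behind each hotspot is unknown.

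Hotspots were counted by chromosome name, with length as end minus start. Both ends are counted from 1 and included, as mirrored hotspots of the chloroplast inverted repeat show. Chloroplast intervals were set on the RefSeq TAIR10.1 annotation, whose chloroplast sequence is 154478 nt long. Mitochondrial coordinates were not, since that annotation's sequence is arranged differently. Mitochondrial pairs with chromosome 2 required equal length and score and at least 5 such pairs within a 250-nt band of the same spacing. This search was tested on simulated data. RNA folding used RNAfold 2.7.2 on the central 50 nt, and GC windows had 67 nt. Intervals are exact Poisson or Clopper-Pearson at 95%. Zero counts allow up to 3 counts. Analyses used Python 3.11.15, pandas 2.3.3, numpy 2.4.6, scipy 1.17.1 and matplotlib 3.10.9.

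The hotspots named were the 5 strongest, 3 longest and 3 densest stretches per organelle. The chloroplast genes named were the 10 with most hotspot bases, the 5 paired genes highest in RPKM that had none, and the extremes of each functional group. Other genes and intervals were named after their values were seen. The members and lists were chosen with earlier results of these data known.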

Additional observations from a re-analysis of the deposited data

How the results depend on the processing

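Of 39 alternative settings over the density, strand, length, score, gene, copy, GC and RPKM summaries, 25 stayed within the exact 95% interval of the value (for medians of score and GC from order statistics), or within 1.5 times for the ratio of RPKM medians, 14 moved beyond it, and 0 changed sign. With hotspots stronger than the median score only, density fell to 30.4 per 100 kb of strand in the chloroplast, 17.5 in the mitochondrion and 6.71 on the nuclear chromosomes, since fewer hotspots were counted. By construction it also made the median scores more negative, at -3.14, -3.19 and -3.34 in the same order. With the shortest hotspots only, the median score was -3.05 in the chloroplast and -2.33 in the mitochondrion. The choice of stronger scores gave 50.5% on the plus strand and 3.68% of the shortest length for nuclear hotspots. Merging hotspots within 50 nt gave a nuclear density of 13.3. The share of chloroplast hotspots on same-strand genes was 60.8% when all bases had to lie in the gene. The share with a sequence copy elsewhere was 44.1% for a match of any 25 nt. For the frequent score values, in a setting added after the data were seen, without the hotspots paired with chromosome 2 the mitochondrial share was 57.1%. The ratio of RPKM medians ran from 1.70 to 2.46 over its alternatives. The highest was for coding lengths of at least 500 nt, also added after the data were seen. Genes under 500 nt were not among the settings. Their medians had the opposite order, 7.94 RPKM with a hotspot and 8.26 RPKM without. Densities, shares and scores could not change sign in any setting. No paired analysis was possible because each assay has 1 library. With no replicate, the spread between samples is unknown, and all intervals cover counting error only.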
